A study of Zea mays with 8 samples.

Results

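Occupancy of the maize transcription factor RAMOSA1 (RA1) in tassel primordia was set against its occupancy in ear primordia, separately for an HA-tagged and a YFP-tagged form of the protein. The members are the 27153 peaks that 4 chromatin immunoprecipitation (ChIP-seq) libraries held on chromosomes 1 to 10, of 27246 deposited peaks in all. They were compared in 2 ways, by the share of each peak list that fell in each of 2063 windows of 1 Mb, and by the rank of summit heights at places where peaks of tassel and ear overlapped by at least 1 bp. There is 1 ChIP library per tissue and tag, so HA and YFP are parallel comparisons that share no ChIP library, and a shift seen with both is the only repeat that the design holds.

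RA1 is a zinc finger protein of plants that represses transcription together with a co-repressor of the TOPLESS family. It acts beside the meristems that form spikelet pairs, where it limits their growth into long branches. Wild-type tassels carry long branches at the base whereas ears carry none, and ra1 mutants have extra branches in the tassel and branched ears. The comparison asks how RA1 occupancy differs between the tassel and the ear.

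All groups have the labelled genotype ra1/ra1 B73 and carry a tagged RA1 transgene, RA1-HA or RA1-YFP. The HA form has an HA-FLAG tag, both forms are tagged at the N-terminus, and both were built to be expressed where the native gene is. The constructs entered maize of the HiII background, the transformants were mated with ra1-R mutants and then backcrossed, and families segregated for the transgene and for ra1. The tagged forms were able to complement the mutant. Each library came from a pool of primordia of 1 to 5 mm, harvested at about 4 weeks after planting for tassels and 6 weeks for ears, so age differs with tissue. HA was precipitated with an anti-HA antibody and YFP with an anti-GFP antibody, and 4 input DNA libraries, 1 for each tissue and tag, served as background in the study.

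The lists on chromosomes 1 to 10 held 2875 peaks in tassel HA, 6641 in ear HA, 4797 in tassel YFP and 12840 in ear YFP. A window of 1 Mb therefore held a mean of 1.39, 3.22, 2.33 and 6.22 peaks in the same order. Summit heights, the number of overlapping fragments at the top of a peak, had medians of 4, 6, 4 and 8. Total reads are unknown here and list length depends on depth, so shares of each list and ranks within each library are compared, not numbers of peaks or heights. All intervals are exact 95% binomial intervals, and Fisher's exact tests are two-sided. Intervals and tests over peaks cover counting error between these lists only, since peaks are not replicates. Over samples, 2 pairs cannot give an exact sign-flip p below 0.5.

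The shift between the tissues that was most alike with both tags was along the chromosome arms. When each chromosome was cut into 10 equal parts of its span, up to the last peak of any list, the tassel share differed from the ear share in the same direction with HA and YFP in all 10 parts. Tassel was above ear in 5 parts (the first 2 and the last 3) and below it in the other 5. In the 7th part the YFP shares were nearly equal, at a ratio of 0.995. In the 4th part, tassel HA had 6.99% of its peaks and ear HA 9.71%, while tassel YFP had 6.80% and ear YFP 9.91%. The ratio of tassel to ear was 0.720 with HA (Fisher's exact test, Benjamini-Hochberg adjusted p over 20 tests = 6.18e-05) and 0.686 with YFP (exact test, adjusted p = 1.09e-09). In the 5th part the ratios were 0.773 (exact test, adjusted p = 0.000924) and 0.743 (exact test, adjusted p = 1.09e-06). The shift toward ear was thus of like size with both tags in the 4th and 5th parts.

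At the start of the chromosomes, in the 1st part, tassel HA had 13.8% of its peaks and ear HA 10.7%, a ratio of 1.29 (exact test, adjusted p = 7.09e-05). Tassel YFP had 13.3% and ear YFP 10.5% there, a ratio of 1.27 (exact test, adjusted p = 1.14e-06). These 3 parts passed the test with both tags in the same direction. Of the 10 parts, 4 passed with each tag (40%), the other ones being the 8th with HA, at a ratio of 1.24 against 1.06 with YFP, and the 10th with YFP, at 1.21 against 1.11 with HA. The 2 ear profiles were nearly flat, with shares of 8.88% to 12.0% in HA and 8.96% to 11.5% in YFP. The tassel profiles dipped in the middle, with 6.99% to 13.8% in HA and 6.80% to 14.0% in YFP.

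The dip was spread over the genome. The 4th and 5th parts together held a smaller share of a chromosome's peaks in tassel than in ear on all 10 chromosomes with HA, at ratios of 0.589 to 0.909. With YFP they did so on 9 of 10, at ratios of 0.568 to 1.00, the exception being chromosome 8 with 18.3% in each tissue. Chromosome 4 had the lowest HA ratio, with 12.1% of tassel and 20.6% of ear HA peaks in these parts, and its YFP ratio was 0.609. The 4th and 5th parts were those with the lowest ratios of the 10 over the same peaks. The split by chromosome is therefore not separate support for the dip. The test by parts was chosen after the position of peaks in these lists was known. Among peaks whose authors' score was at least 100, a smaller set of the most enriched peaks, the direction was shared by the tags in 5 of 10 parts only. In that set the 5th part kept ratios of 0.703 and 0.759, on 36 tassel HA, 26 ear HA, 115 tassel YFP and 41 ear YFP peaks, while the 4th had 1.56 with HA and 0.842 with YFP.

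**Figure D1:**
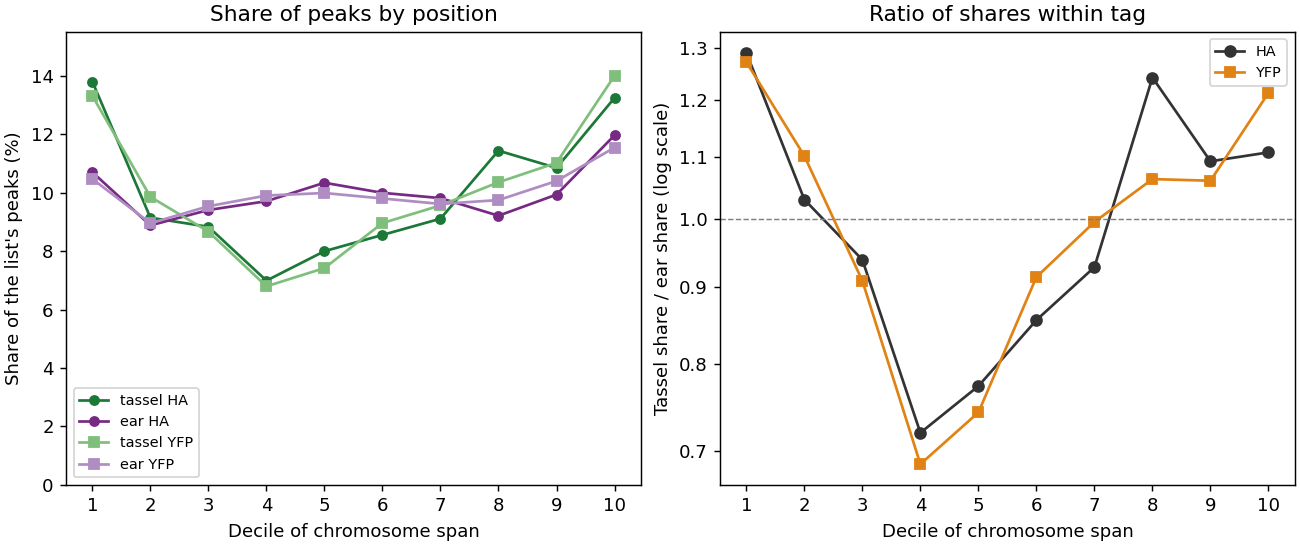
Position of peaks along chromosomes 1 to 10, each cut into 10 equal parts of its span. Left, the share of each list's peaks in each part, in percent; right, the tassel share divided by the ear share for each tag, on a log axis, where both tags are lowest in the 4th part (0.720 and 0.686) and lie above 1 in the first 2 and last 3 parts.

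Between whole chromosomes the shifts were small, and they leaned the same way with both tags on 9 of 10, 4 toward tassel (chromosomes 1, 5, 6 and 7) and 5 toward ear (chromosomes 2, 3, 4, 9 and 10). Chromosome 8 had a ratio of 1.07 with HA but of 1.00 with YFP, with 8.65% of tassel and 8.64% of ear YFP peaks. Chromosome 6 held 8.59% of tassel HA (interval 7.59 to 9.68) and 7.59% of ear HA peaks (6.96 to 8.25). With YFP it held 9.09% in tassel (8.29 to 9.94) and 8.26% in ear (7.79 to 8.75). The ratios of 1.13 and 1.10 did not pass the test (exact test, adjusted p over 20 tests = 0.391 for both). Chromosome 9 held 6.71% of tassel HA (5.83 to 7.69) and 7.97% of ear HA peaks (7.33 to 8.64), and 7.21% (6.50 to 7.98) and 7.76% (7.30 to 8.23) with YFP. Of the 20 tests, 1 passed: chromosome 10 held 6.34% of tassel YFP (5.66 to 7.06) and 7.69% of ear YFP peaks (7.24 to 8.17), a ratio of 0.824 (exact test, adjusted p = 0.0405), which is 10% of the YFP tests and 0% of the HA tests. With HA, chromosome 10 had a ratio of 0.953 (exact test, adjusted p = 0.693). An unadjusted p under 0.05 was reached in 3 tests.

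At the scale of 1 Mb, agreement between the tags was weak. A window was compared with a tag when its tassel and ear lists held at least 5 peaks in it together, and it was called shifted when the shares differed at least 2-fold after 0.5 peaks had been added to each count. With HA, 188 of 984 windows were shifted toward tassel (19.1%) and 132 toward ear (13.4%). With YFP, 306 of 1810 were shifted toward tassel (16.9%) and 319 toward ear (17.6%). In the 926 windows compared with both tags, HA called 176 toward tassel (19%) and 125 toward ear (13.5%), and YFP called 155 (16.7%) and 145 (15.7%). Both tags called 34 toward tassel (3.67%) and 29 toward ear (3.13%), and they called 32 in opposite directions (3.46%). The balance of tassel and ear calls depended on the setting. It was 41 against 14 with 1 peak added instead of 0.5, and 7 against 0 with at least 10 peaks per window. Without summits under 5 fragments, a limit chosen after seeing the data, it was 97 against 2. That limit is above the median height of 4 in both tassel lists and below the medians of 6 in ear HA and 8 in ear YFP. It therefore removed a larger part of the tassel lists than of the ear lists.

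Of the 176 windows shifted toward tassel with HA, 34 (19.3%, interval 13.8 to 25.9) were so with YFP, beside 16.7% of all 926 windows. Of the 125 shifted toward ear with HA, 29 (23.2%, 16.1 to 31.6) were so with YFP, against 15.7% of all. The interval takes in the background for tassel, and its lower end is just past it for ear. Which tissue stood farther above the background depended on the setting. With windows offset by 500 kb, tassel had 23.6% against 17.6% and ear 18.8% against 14.8%. With at least 10 peaks, tassel had 33.3% against 22.8% and ear 0% against 5.26%. Without summits under 5 fragments, tassel had 51.1% against 35.8% and ear 33.3% against 12.6%. The latter rests on 2 windows called toward ear with both tags. Opposite calls were below the background in the main setting, at 11.4% of the HA tassel windows, against 15.7% called toward ear by YFP in all, and 9.60% of the HA ear windows, against 16.7%. By sign alone, 520 of the 926 windows (56.2%) leaned the same way, against 50.6% given by the share leaning toward tassel with each tag. The log2 ratios of the tags had a Pearson r of 0.15 and a Spearman rho of 0.15 over the 926 windows. Windows of a library share its depth and the mappable sequence of the genome, so these values are descriptions.

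Counts of peaks per window were more alike between the tags of a tissue than between the tissues of a tag. Over 2063 windows, Spearman's rho was 0.27 between the tassel lists and 0.21 between the ear lists. Between tissues it was 0.09 with HA and 0.14 with YFP, and 0.10 and 0.14 for the pairs that differ in tissue and tag. All 6 values are low at these counts. Both tassel shares lay above both ear shares in 209 of the 926 windows (22.6%), and both ear shares lay above both tassel shares in 195 (21.1%).

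**Figure D2:**
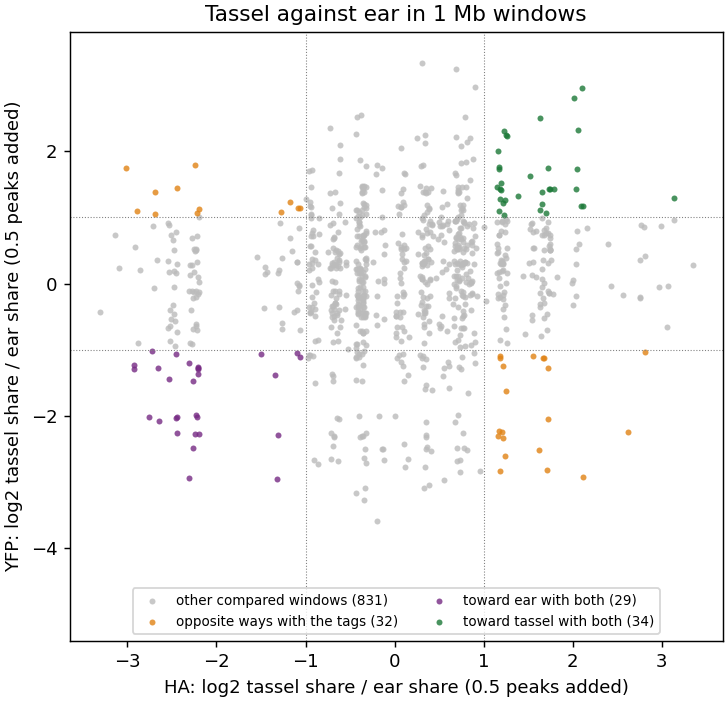
Log2 ratio of tassel to ear share in the 926 windows of 1 Mb compared with both tags, HA on the horizontal and YFP on the vertical axis; points are spread by a small random offset, and dotted lines mark 2-fold. The tags called 63 windows in the same direction, 34 toward tassel and 29 toward ear, and 32 in opposite directions.

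Single windows rested on few peaks, and their counting error was wide. With HA, no window passed Fisher's exact test after adjustment over 984 windows (0%, lowest adjusted p = 0.819), and 25 (2.54%) had an unadjusted p under 0.05. With YFP, 1 of 1810 passed (0.0552%) and 67 (3.7%) had an unadjusted p under 0.05. That window, on chromosome 4 from 4000001 to 5000000, held 9 tassel YFP peaks and 0 ear YFP peaks (exact test, adjusted p = 0.0147). With ear put at a floor of 3 peaks for the library, its share was 8.03-fold higher in tassel. This value leaves out the counting error of the 9 tassel peaks. The window held 3 tassel HA peaks and 1 ear HA peak, too few to be compared with HA. Of its tassel peaks, 1 in each list lay in a region found with both tags, and the highest summits were 14 fragments in HA and 12 in YFP.

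The 34 windows shifted toward tassel with both tags lay toward chromosome ends. The same peaks gave the higher tassel shares in the outer parts of the span, so this is not separate support for that shift. Of the 34 windows, 25 (73.5%) had their centre in the outer 40% of the span, against 420 of the 926 compared windows (45.4%) and 11 of the 29 shifted toward ear (37.9%). Their median distance to the nearer end was 9.22% of the span, against 22.1% for all compared windows and 23.8% for those toward ear. At 3-fold, 3 of 6 tassel windows were in the outer part, and with windows of 2 Mb 12 of 22 were (54.5%, against 40.7% of all compared). The excess was also smaller at 1.5-fold (53.8%, against 45.4%) and with no minimum (49.2%, against 40.1%). The tassel windows lay on 9 chromosomes, 7 of them on chromosome 6 (78 compared) and none on chromosome 10 (68 compared). The ear windows lay on all 10 chromosomes, with 5 each on chromosomes 2 and 9. No 2 windows of either set were neighbours.

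The tassel windows held 138 tassel HA, 105 ear HA, 194 tassel YFP and 174 ear YFP peaks, which is 4.8%, 1.58%, 4.04% and 1.36% of the lists. Some of their tassel peaks marked the same places with both tags: 50 of 138 HA peaks (36.2%) and 50 of 194 YFP peaks (25.8%) lay in regions that hold a tassel peak of each tag, against 23.8% and 17.3% over all compared windows. The ear peaks there did likewise. Of them, 23 of 105 HA peaks (21.9%) and 23 of 174 YFP peaks (13.2%) lay in regions with an ear peak of each tag. Over all compared windows 12.0% and 7.71% did, so the excess was not particular to tassel peaks. The windows were chosen for high tassel shares with both tags, and these differences were not tested. Neighbouring peaks less than 10 kb apart made up 10.1% of the tassel HA and 16.5% of the tassel YFP peaks there, against 5.42% and 7.79% over all compared windows. Such neighbours add to the counts by which the windows were chosen, so the choice favours them, and this was not tested either. Ear HA summits reached 10 fragments more often in these windows, 28.6% of them against 13.3% over all, with a median of 7 in both. The other lists differed by less in proportion. They had 8.70% against 6.43% in tassel HA, 21.1% against 16.5% in tassel YFP and 44.8% against 36.9% in ear YFP. These differences in height were not tested. The ear windows held 181 ear HA and 237 ear YFP peaks (2.73% and 1.85% of the lists) but 6 tassel HA and 18 tassel YFP peaks (0.209% and 0.375%). Of the 29 ear windows, 23 held 0 tassel HA peaks and 13 held 0 tassel YFP peaks. The choice of windows thus left little room for tassel regions with both tags, and none of the tassel peaks there lay in one. Of the ear peaks, 11 in each list lay in a region found with both tags (6.08% and 4.64%, against 12.0% and 7.71% over all).

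Of the tassel windows, 6 are named by the largest difference in share that both tags reached. Tassel window 1, on chromosome 6 from 164000001 to 165000000, held 7 of 2875 tassel HA peaks (0.243%, interval 0.0979 to 0.501) and 6 of 6641 ear HA peaks (0.0903%, 0.0332 to 0.197). With YFP it held 9 tassel peaks (0.188%, 0.0858 to 0.356) and 10 ear peaks (0.0779%, 0.0374 to 0.143). The ratio was 2.69 with HA (0.776 to 9.71) and 2.41 with YFP (0.866 to 6.60), so that either tag alone leaves no shift within counting error. It was the window in which the tags coincided most among the 6, since 6 of its tassel peaks in each list lay in regions marked with both tags, and 4 of its 5 such regions had no ear peak. Some of its tassel peaks were close neighbours. With HA 3 of 7, and with YFP 4 of 9, lay less than 10 kb after another peak of the same list.

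Tassel window 2, on chromosome 4 from 70000001 to 71000000, held 4 tassel HA and 2 ear HA peaks, a ratio of 4.62 (0.662 to 51.1). With YFP it held 6 and 2 peaks, a ratio of 8.03 (1.44 to 81.4). It lay farther from a chromosome end than the other 5, at 29.2% of the span. Tassel window 3, on chromosome 7 from 166000001 to 167000000, held 4 and 2 peaks with HA and 8 and 4 with YFP, a YFP ratio of 5.35 (1.43 to 24.3). None of its tassel summits exceeded 4 fragments. The YFP intervals of windows 2, 3 and 6 left out 1, while the HA intervals of all 6 took it in.

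Tassel window 4, on chromosome 2 from 7000001 to 8000000, held 6 tassel and 4 ear HA peaks and 8 tassel and 8 ear YFP peaks. Tassel window 5, on chromosome 5 from 214000001 to 215000000, held 5 and 5 with HA and 9 and 10 with YFP, and 1 of its regions was found in all 4 lists. Tassel window 6, on chromosome 6 from 15000001 to 16000000, held 5 and 5 with HA and 8 and 4 with YFP, the same YFP ratio and interval as window 3. Equal counts in tassel and ear are a higher share of the shorter tassel lists, which is how such windows were called. None of the 6 passed the adjusted test (exact test, adjusted p of 1 with HA and 0.694 or 1 with YFP).

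The 6 named ear windows held at most 2 peaks in either tassel list. Ear window 1, on chromosome 8 from 69000001 to 70000000, held 1 tassel HA peak (0.0348%, interval 0.000881 to 0.194) and 8 ear HA peaks (0.120%, 0.0520 to 0.237). With YFP it held 2 tassel peaks (0.0417%, 0.00505 to 0.151) and 17 ear peaks (0.132%, 0.0771 to 0.212). The ear share was 3.46 times the tassel share with HA (0.464 to 154) and 3.18 times with YFP (0.754 to 28.3). Ear window 2, on chromosome 7 from 27000001 to 28000000, held 1 and 8 peaks with HA and 0 and 10 with YFP. Ear window 3, on chromosome 4 from 191000001 to 192000000, held 0 tassel peaks in either list beside 5 ear HA and 10 ear YFP peaks.

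A count of 0, put at a limit of 3 peaks over the length of the list, allows a share of up to 0.104% in tassel HA and 0.0625% in tassel YFP. The two-sided exact intervals of a count of 0 reach 0.128% and 0.0769%. The ear HA share of 0.0753% in ear window 3 lies below both HA limits, and its ear YFP share of 0.0779% is above both YFP limits, the second by little. Ear windows 4 and 5, on chromosome 9 from 139000001 to 140000000 and from 76000001 to 77000000, each held 0 tassel HA peaks beside 5 and 7 in ear HA. With YFP they held 1 and 2 tassel peaks beside 11 and 13 in ear. Ear window 6, on chromosome 4 from 93000001 to 94000000, held 0 and 5 peaks with HA and 1 and 10 with YFP. A shift toward ear in single windows was thus not separable from counting error at this depth (exact test, adjusted p of 1 for all 6 windows with both tags).

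**Figure D3:**
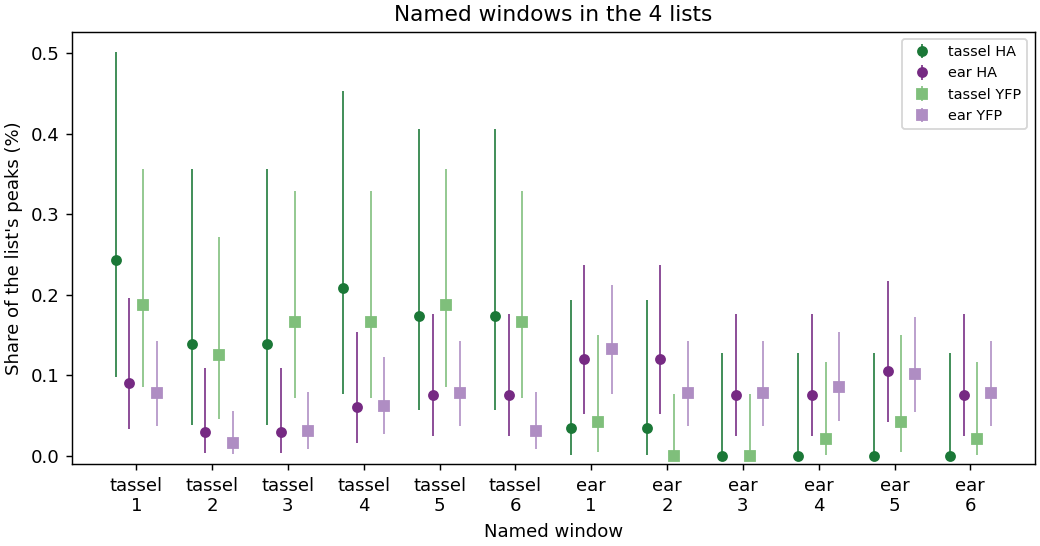
Share of each list's peaks, in percent, in the 6 named tassel windows and the 6 named ear windows; points are the 4 libraries and bars are exact 95% binomial intervals. Tassel points lie above ear points in the tassel windows and below them in the ear windows, as the choice of windows requires, and the intervals of tassel and ear overlap within each tag in all 12 windows.

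At single sites, RA1 occupancy could be compared by rank where a tassel and an ear peak of the same tag fell in 1 merged region, merged over all 4 lists. There were 244 such sites with HA, which took in 8.56% of the tassel and 3.69% of the ear HA peaks, and 374 with YFP, with 7.92% and 2.94%. Heights were ranked within each library over the same sites and given as percentiles, and a site was called shifted when its tassel and ear ranks differed by at least 25 points. With HA, 42 of 244 sites were shifted toward tassel (17.2%) and 36 toward ear (14.8%). With YFP, 60 of 374 were shifted toward tassel (16%) and 67 toward ear (17.9%). The order of heights was partly kept between the tissues, with a Spearman rho of 0.60 for HA and 0.57 for YFP.

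The YFP sites shifted toward ear differed from the others in the lists they shared, in ear peak width and in summit distance. Their tassel heights, which the rank rule used, were low, with a median of 4 fragments against 11 for all 374. The features may therefore not be independent of the rule, and whether they go with low tassel height alone was not tested. Of these 67 sites, 3 (4.48%) held peaks of all 4 lists, against 37.4% of the 374. Their ear peaks had a median width of 1346 bp, against 644.5 bp for all 374, and the tassel and ear summits lay a median of 364 bp apart, against 32.5 bp. Only 9 of the 67 (13.4%) had summits within 50 bp. In most of them the peaks overlapped but their tops lay apart. The 60 YFP sites shifted toward tassel had summits a median of 10 bp apart, and 26 of them (43.3%) held peaks of all 4 lists. With HA, the ear-shifted sites had a median distance of 14.5 bp and an ear width of 470 bp, against 11 bp and 506 bp for all 244. These differences between groups of sites were not tested.

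The 140 sites with peaks of all 4 lists allow both tags to be read at the same place. Summits of tassel and ear lay a median of 7 bp apart with HA (quartiles 2 and 32) and 5 bp with YFP (2 and 14.5). With HA the tassel height was lower than the ear height at 123 of the 140 sites, with medians of 7 and 17 fragments. With YFP it was higher at 116, with medians of 23 and 17. Raw heights thus went opposite ways with the tags, and since they are not scaled to depth, ranks over the 140 sites were used. Heights of the ear libraries agreed best in rank, with a Spearman rho of 0.89, followed by ear HA with tassel YFP at 0.84 and tassel YFP with ear YFP at 0.78. The tassel HA library had the lowest values, 0.62 with tassel YFP, 0.56 with ear HA and 0.52 with ear YFP, and many of its heights are small and tied.

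With HA, 25 of the 140 sites were shifted toward tassel (17.9%) and 22 toward ear (15.7%). With YFP, 10 were shifted toward tassel (7.14%) and 9 toward ear (6.43%). Both tags called 4 sites toward tassel (2.86%) and 2 toward ear (1.43%), and 0 sites (0%) went opposite ways by 25 points. Of the 25 HA sites toward tassel, 4 (16.0%) were also so with YFP, against 7.14% of all 140, and of the 22 toward ear 2 were (9.09%, against 6.43%). By sign alone, 72 of 140 sites (51.4%) moved the same way, 34 toward tassel and 38 toward ear, against 48.2% given by the shares of each tag. The rank differences of the tags had a Pearson r of 0.23 and a Spearman rho of 0.17 over the 140 sites. Both tassel ranks lay above both ear ranks at 26 sites (18.6%), and both ear ranks lay above both tassel ranks at 29 (20.7%).

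**Figure D4:**
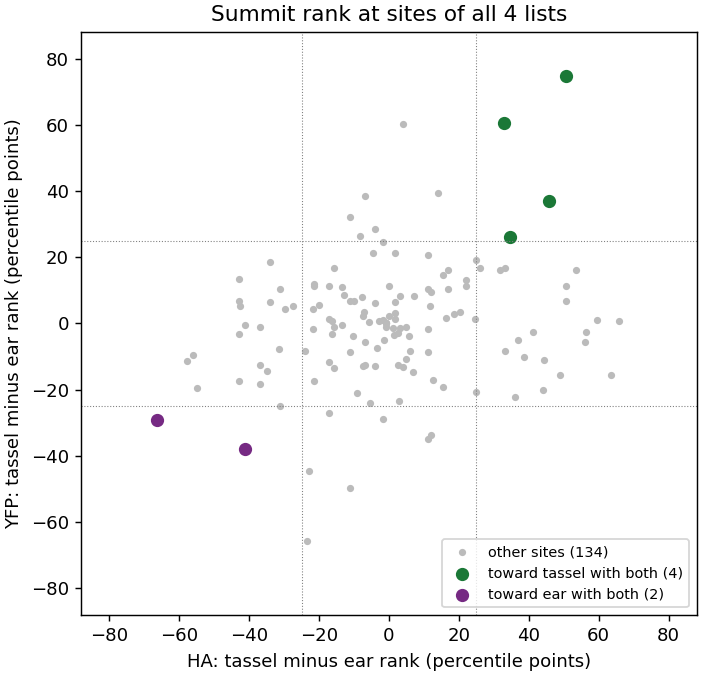
Tassel minus ear rank of the summit height, in percentile points, at the 140 sites with peaks of all 4 lists, HA on the horizontal and YFP on the vertical axis; dotted lines mark 25 points. The 4 sites in the upper right are shifted toward tassel and the 2 in the lower left toward ear with both tags; 51.4% of the sites moved the same way with both.

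Of the 6 sites shifted the same way with both tags, the one with the largest shift was tassel site 1, on chromosome 8 from 153473308 to 153473809. Its summit heights were 10 fragments in tassel HA, 10 in ear HA, 50 in tassel YFP and 8 in ear YFP. Its rank was the 67.9th percentile in tassel HA against 17.1 in ear HA, a difference of 50.7 points, and 80.7 in tassel YFP against 6.07 in ear YFP, a difference of 74.6 points. On the log2 scale, with the median over the 140 sites set to 0 for each tag, the ratio of tassel to ear height was 1.26 with HA and 2.08 with YFP. With YFP the share of summed heights differed (Fisher's exact test over heights, adjusted p over 140 sites = 0.00159). With HA the exact test was not passed (adjusted p = 0.384). The 4 summits lay within 3 bp of one another, so the same place was marked in all 4 libraries.

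Tassel site 2 (chromosome 4, 165494392 to 165494992) reached 14 fragments in tassel HA, 14 in ear HA, 26 in tassel YFP and 10 in ear YFP. Its rank was 45.7 points higher in tassel with HA and 37.1 points with YFP. Tassel site 3 (chromosome 3, 135130553 to 135130944) reached 13, 16, 32 and 8 fragments in that order, with differences of 32.9 and 60.7 points. Their centred log2 ratios of tassel to ear height were 1.26 with HA and 0.81 with YFP at site 2, and 0.96 and 1.43 at site 3, so both leaned toward tassel with each tag.

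Tassel site 4 (chromosome 2, 136616607 to 136617284) reached 7, 9, 18 and 8 fragments, with differences of 34.6 and 26.1 points, the latter close to the limit. Its ranks were below the median in all 4 libraries, and those of the other 3 tassel sites were above it in both tassel libraries. None of tassel sites 2 to 4 passed the test of heights with either tag (exact test, adjusted p of 0.179 to 0.976). In all 4 tassel sites the ear YFP height was 8 or 10 fragments, near the median of 8 in that whole list.

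Ear site 1, on chromosome 1 from 134838 to 135545, lay at the very start of the chromosome, 0.0447% of the span from its end. Its heights were 6 in tassel HA, 34 in ear HA, 21 in tassel YFP and 31 in ear YFP. The ear rank was higher by 41.1 points with HA (77.5 against 36.4) and by 37.9 with YFP (79.3 against 41.4). The centred log2 ratio of tassel to ear height was -1.24 with HA and -1.13 with YFP, of like size with the tags, and all 4 summits lay within 12 bp.

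Ear site 2 (chromosome 1, 249954935 to 249955308) reached 4, 29, 23 and 31 fragments in the same order. The ear rank was higher by 66.4 points with HA (73.6 against 7.14) and by 29.3 with YFP. The centred log2 ratio was -1.59 with HA and -0.998 with YFP. Neither ear site passed the test of heights (exact test, adjusted p of 0.174 with HA for both, and 0.156 and 0.241 with YFP).

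These 6 calls depend on ranking among the shared sites. Ranked over each whole list, none of the 6 was called with both tags. Instead 4 other sites were called toward tassel and 0 toward ear, so no site was called with both tags under both rankings. The 4 other sites had differences of 20.4 to 65.7 points with HA and of 0.714 to 16.1 points with YFP when ranked among the 140. Over the whole lists tassel site 1 was at the 94.7th percentile in tassel HA and 90.0 in ear HA, and at 98.6 and 43.8 with YFP, so that its YFP difference stayed above 25 points and its HA difference did not. Of the 8 alternatives tried, tassel site 1 kept its call in 5, tassel sites 2 to 4 in 4 each, ear site 1 in 6 and ear site 2 in 5. The looser limit of 15 points was among these and could not lose a call made at 25 points. The settings for overlap and summit distance changed only which sites were ranked.

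**Figure D5:**
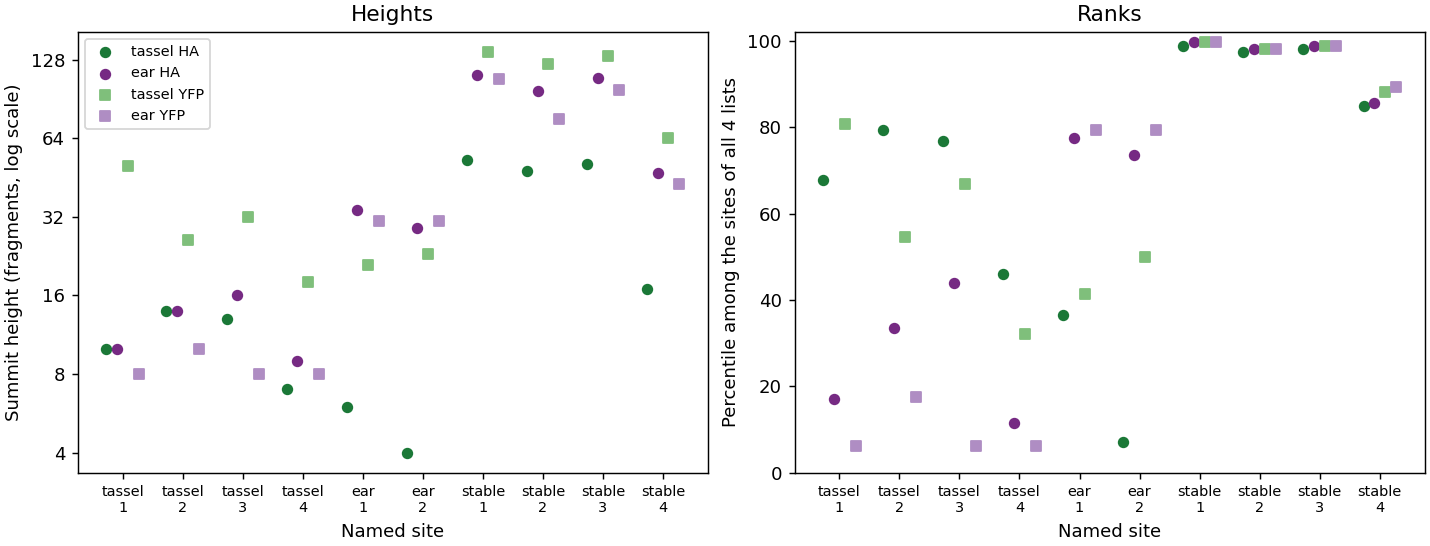
Summit heights in fragments on a log axis (left) and percentiles among the 140 sites (right) at the 4 tassel sites, the 2 ear sites and 4 stable sites in each of the 4 libraries. In the right panel, tassel points lie above ear points of the same tag at the tassel sites and below them at the ear sites, and the 4 points nearly coincide at the stable sites.

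The 4 sites with the smallest rank shift, named for that reason, include some of the highest summits among the 140 sites in each library. They were a neighbouring pair on chromosome 6 (140855248 to 140855912, and 140853414 to 140854419), a site on chromosome 1 (62371697 to 62372144) and another on chromosome 4 (159568502 to 159571118). The first 3 ranked at or above the 97.5th percentile in all 4 libraries, with differences of at most 0.714 points. The site on chromosome 4, with heights of 17, 47, 64 and 43 fragments, ranked between the 85.0th and the 89.3rd percentile and differed by at most 1.07 points. A site at the top of these ranks in all 4 libraries has little room to move. The site on chromosome 2 from 21600863 to 21602875, with heights of 69, 71, 84 and 68, ranked between the 96.1st and the 99.6th percentile and still differed toward tassel in the HA test of heights over the 244 HA sites (exact test, adjusted p = 0.00166). The window around the chromosome 6 pair was itself among those shifted toward tassel with both tags, with 5 peaks in each HA list and 7 tassel and 8 ear YFP peaks.

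By the test of heights within a tag, 5 of 244 HA sites (2.05%) and 2 of 374 YFP sites (0.535%) passed after adjustment, and 29 (11.9%) and 86 (23%) had an unadjusted p under 0.05. These 7 were chosen after their values were seen. With HA, 3 were higher in tassel than their library total gives, all on chromosome 2: from 202196055 to 202196726 (42 fragments in tassel, 23 in ear), from 20709469 to 20709811 (24 and 8) and from 21600863 to 21602875 (69 and 71). The first 2 had no ear YFP peak, and tassel YFP heights there were 66 and 47. The HA sites higher in ear were at 152375810 to 152376849 of chromosome 1 (6 and 55) and at 102687247 to 102688065 of chromosome 10 (9 and 65), and with YFP their tassel and ear heights were 49 and 43, and 51 and 62. With YFP, tassel site 1 passed, as did a site on chromosome 5 from 13591273 to 13592107 (83 in tassel, 35 in ear), where the HA heights were 28 and 28. None of the 7 passed with both tags, but the 2 HA sites without an ear YFP peak could not be tested with YFP.

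All coordinates are in the maize B73 assembly AGPv2. The genes at these windows and sites, and their sequence, were not analysed here, because no annotation or genome of that assembly was used.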

How the data were processed

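The 4 ChIP libraries have 1 list of peaks and 1 of summits each, called per library and not pooled. Per the submitters' processing notes, CASAVA and MACS 1.4.0rc2 were used, and per the series text peaks were enriched over input at p below 1e-05. Aligner settings and read filters: not given in the sources used here. No value of the peak score deposited by the authors is below 50, so it is read as -10 log10 of the p-value. The signal at summits, as deposited, counts whole overlapping fragments without scaling to depth. Sequence names carry the AGPv2 prefix.

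Peaks were assigned to windows by their summits, and the highest summit of a library in a merged region was its height. Equal heights shared a mid-rank. Fisher's exact tests set a window's peaks, or a site's height, against the rest of the list or the summed heights of the other sites. Fragments under a summit may be PCR copies, so tests over heights cover counting error only. Named windows and sites are those shifted toward the same tissue with both tags, ordered by the smaller of the 2 tags' shifts, up to 6 windows and 8 sites per tissue, and the 4 sites with the smallest larger shift; ties between windows went by chromosome. The code for the calls was run on simulated lists with planted shifts. Peaks fell at equal rates over all other windows there, unlike the real lists, so the error of the calls reported here was not measured. The comparisons and lists were chosen with earlier results of these data known. Alternatives covered window size, offset, minimum, fold, peak strength, clustering, overlap and ranking. Python 3.11.15, numpy 2.4.6, pandas 2.3.3, scipy 1.17.1 and matplotlib 3.10.9 were used.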

Additional observations from a re-analysis of the deposited data

Results flagged for a closer look

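Peaks outside the 10 chromosomes went differently with the tags. On unplaced sequence, tassel HA had 37 peaks (1.27% of its list, interval 0.896 to 1.75) and ear HA 7 (0.105%, 0.0423 to 0.217), a tassel excess of 1.16 percentage points. Tassel YFP had 6 (0.124%, 0.0456 to 0.270) and ear YFP 16 (0.124%, 0.0712 to 0.202), a difference of -0.000206 points. The difference between the tags was not tested. On the organelle genomes tassel YFP had 26 peaks, while tassel HA had 1 and both ear lists 0.

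At the 140 sites of all 4 lists, the median log2 ratio of tassel to ear height was -1.26 with HA and 0.57 with YFP. The height of tassel relative to ear therefore went opposite ways with the tags at most sites, and this was not tested, since heights are not scaled to depth. In 1 Mb windows, 32 of 926 were shifted 2-fold in opposite directions with the tags, beside 63 shifted in the same direction.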

How the results depend on the processing

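Window counts depended on the setting, also where the same windows were compared (fold and added peaks). Windows called with HA (320) numbered 140 at 500 kb, 62 at 5 Mb, 32 with at least 10 peaks, 986 with no minimum, 611 at 1.5-fold, 192 at 3-fold, 0 at a score of at least 100, 108 at equal list lengths and 213 at a summit height of at least 5, a setting added after seeing the data. With YFP (625) they numbered 270 at 2 Mb, 51 at 5 Mb, 221 with at least 10 peaks, 989 at 1.5-fold, 311 at 3-fold, 15 at the score limit and 120 at equal lengths. Windows toward tassel with both tags (34) numbered 19 at 500 kb, 22 at 2 Mb, 1 at 5 Mb, 7 with at least 10 peaks, 118 with no minimum, 119 at 1.5-fold, 6 at 3-fold, 0 at the score limit (1 window compared), 7 at equal lengths and 97 at the height limit. Those toward ear (29) numbered 5 at 500 kb, 4 at 5 Mb, 0 with at least 10 peaks, 121 with no minimum, 69 at 1.5-fold, 11 at 3-fold, 14 with 1 peak added, 0 at the score limit, 2 at equal lengths, 18 with clusters counted once and 2 at the height limit. The correlation between tags (Spearman's rho of 0.15) was 0.25 at 500 kb, 0.27 with at least 10 peaks and 0.36 at the height limit, and could not be computed at the score limit. The HA sites called (78) numbered 125 at 15 points, 31 at 40 points, 48 by centred log2 ratio and 32 at a site score of at least 100, and the YFP sites (127) numbered 64 with summits within 200 bp, 64 at 40 points and 8 at the score limit. Sites toward tassel with both tags (4) numbered 10 at 15 points and 1 each at 40 points, by log2 ratio and at the score limit. By rank over the whole list there were also 4, of which 0 were among the first 4. Those toward ear (2) numbered 0 by rank over the whole list, 5 by score, 10 at 15 points, 0 at 40 points and 1 by log2 ratio. The parts of the span shifted alike with both tags (10) fell to 5 at the score limit and were 8 to 10 under the other 3 settings, and chromosomes shifted alike by sign alone, chromosome 8 included, were 7 to 10 of 10. The causes were not tested. No paired analysis was possible because groups share 1 replicate number only; tassel and ear were set against each other within each tag, which gives 2 pairs, and no library was left out.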
